A study of Mus musculus with 6 samples.

Results

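The interferon-induced transmembrane (IFITM) genes were followed in natural killer (NK) cells and type 1 innate lymphoid cells (ILC1s) sorted from mouse tumours. The members were the rows named Ifitm1, Ifitm2, Ifitm3, Ifitm6 and Ifitm10, which are 5 of the 55291 gene symbols in the count table. They were chosen by their measured levels in the ILC1 to NK comparison, so their values and test results in it are given as a description only. MC38 colon carcinoma cells, a line derived from C57BL/6 mice, had been injected under the skin of wild-type C57/BL6 mice, and tumours were taken at day 14. The NK group and the ILC1 group came from these tumours and held 3 libraries each, and the labels give no further treatment. The sources used here do not give the age or sex of the mice, the sort markers or the number of mice per sample. The labels do not say that samples of a group came from separate mice, so any spread between libraries may be technical.

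IFITM proteins are small membrane proteins of the dispanin (CD225) family. They sit in the plasma membrane and in endosomes and lysosomes, where they hinder the fusion of enveloped viruses with the cell's membranes. Type I interferon induces several of them through a promoter sequence called the interferon-stimulated response element (ISRE), and interferon gamma acts through the gamma-activated site (GAS). IFITM3 acts mainly in endosomes, IFITM1 is found more at the cell surface, and lymphocytes, macrophages and fibroblasts can all express members of the family.

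Ifitm1, Ifitm2, Ifitm3 and Ifitm6 lie in a cluster of 69.0 kb on chromosome 7 together with Ifitm5, a bone gene. On GRCm38, with GENCODE M21 gene models, Ifitm2 spans 7:140954837-140955987 on the reverse strand, Ifitm1 7:140967221-140969825 on the forward strand, Ifitm3 7:141009586-141010770 and Ifitm6 7:141015699-141017924, both on the reverse strand. Ifitm10 lies outside the cluster, 1.31 Mb further along the chromosome, at 7:142325837-142373753 on the reverse strand. All 5 are annotated as protein-coding, and a count refers to the whole gene.

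The promoters are shown because Ifitm1, Ifitm2 and Ifitm3 shared a direction between the cell types while Ifitm10 went the other way. Each is the RefSeq window on GRCm38.p6 from 250 bases before to 50 bases after a transcription start, 5′ to 3′ on the gene's strand, with capitals for letters that match the ISRE pattern (GAAA, any 2 bases, GAAA) or the GAS pattern (TTC, any 3 bases, GAA) on either strand. All 5 genes were matched by symbol. For Ifitm10 the first of 3 windows is printed.
Ifitm1, chr7:140967826-140968125, forward strand: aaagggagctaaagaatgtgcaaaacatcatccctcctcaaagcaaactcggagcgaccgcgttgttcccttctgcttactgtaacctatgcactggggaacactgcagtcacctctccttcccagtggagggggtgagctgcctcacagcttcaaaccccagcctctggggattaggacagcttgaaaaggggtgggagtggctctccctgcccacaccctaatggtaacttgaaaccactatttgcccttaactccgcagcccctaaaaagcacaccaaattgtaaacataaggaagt
Ifitm2, chr7:140955912-140956211, reverse strand: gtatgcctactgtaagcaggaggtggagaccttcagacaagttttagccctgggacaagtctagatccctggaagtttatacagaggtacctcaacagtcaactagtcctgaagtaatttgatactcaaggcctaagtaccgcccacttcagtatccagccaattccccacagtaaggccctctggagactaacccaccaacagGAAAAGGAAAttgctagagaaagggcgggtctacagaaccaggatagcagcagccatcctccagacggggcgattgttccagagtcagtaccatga
Ifitm3, chr7:141010695-141010994, reverse strand: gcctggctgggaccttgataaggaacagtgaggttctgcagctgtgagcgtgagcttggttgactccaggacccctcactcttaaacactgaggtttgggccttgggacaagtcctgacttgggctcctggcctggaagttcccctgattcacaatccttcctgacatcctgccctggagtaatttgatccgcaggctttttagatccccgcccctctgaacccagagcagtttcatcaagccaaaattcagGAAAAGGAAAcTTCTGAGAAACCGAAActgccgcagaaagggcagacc
Ifitm6, chr7:141016843-141017142, reverse strand: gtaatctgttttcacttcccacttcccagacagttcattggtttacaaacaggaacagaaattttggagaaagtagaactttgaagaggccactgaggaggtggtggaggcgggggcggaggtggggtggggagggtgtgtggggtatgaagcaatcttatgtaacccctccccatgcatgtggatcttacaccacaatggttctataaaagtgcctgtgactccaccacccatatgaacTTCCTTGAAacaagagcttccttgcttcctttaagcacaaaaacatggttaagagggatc
Ifitm10, chr7:142372210-142372509, reverse strand: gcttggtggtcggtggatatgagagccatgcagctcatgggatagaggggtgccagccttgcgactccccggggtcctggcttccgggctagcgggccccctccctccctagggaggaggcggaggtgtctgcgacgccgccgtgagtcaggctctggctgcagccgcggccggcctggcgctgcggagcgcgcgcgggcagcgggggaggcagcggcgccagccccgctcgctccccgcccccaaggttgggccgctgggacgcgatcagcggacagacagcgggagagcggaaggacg

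The Ifitm3 window held 2 ISRE matches, at 2 to 11 and at 19 to 28 bases past the start, counting the first transcribed base as 0. It also held a GAS match at 13 to 21, which overlaps the second ISRE match by its last letters. The Ifitm2 window held 1 ISRE match, with its first base at -46 and its last at -37. The longest run shared by the Ifitm2 and Ifitm3 windows, caggaaaaggaaa, is 13 bases long and contains that match. The Ifitm6 window held a GAS match that begins at -10, and neither pattern occurred in the Ifitm1 window or in any of the 3 Ifitm10 windows. Of 32851 windows of 300 bases from all genes, 3.44% held the ISRE pattern and 8.3% the GAS pattern. A match describes letters in these windows and shows no binding, and other starts of these genes were not searched.

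Before the members are described, the libraries themselves need a word. They held 16931099 to 20224847 counts. Eomes and Itga2, which mark NK cells, ran from 361 to 562 and from 90.7 to 146 CPM (counts scaled to a common library size) in NK libraries against 68.4 to 170 and 4.17 to 21.04 CPM in ILC1 libraries, and Itga1 and Cxcr6, which mark ILC1s, were higher in every ILC1 library. The libraries did not divide by cell type alone. NK replicate 3 stood with the first 2 ILC1 replicates over the whole transcriptome: across genes, which are not independent, its log2 CPM had a Pearson correlation of 0.977 and 0.971 with these and of 0.880 with either other NK library. It shared matrix genes with them, and ILC1 replicate 3 held macrophage genes. The collagen gene Col1a1 had 0.549, 0.822 and 82.4 CPM over NK replicates 1 to 3 and 116, 134 and 4.87 CPM over the ILC1 replicates. Lyz2, the macrophage lysozyme, stood at 5838 CPM in ILC1 replicate 3 and between 29.8 and 117 CPM in the other 5 libraries. In bulk RNA, fewer cells of a type and less RNA per cell cannot be told apart.

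Ifitm1 was the member with the clearest split between the cell types. It stood at 19.9, 8.32 and 13.9 CPM in NK replicates 1 to 3 and at 157, 178 and 358 CPM in ILC1 replicates 1 to 3. The ILC1 libraries all lay far above the NK libraries, NK replicate 3 lay between the other NK libraries, and ILC1 replicate 3 was the highest. The ILC1 mean was 231 ± 111 CPM and the NK mean 14.1 ± 5.81 CPM (SD, n = 3 each), a 16.4-fold difference, and the fitted log2 fold change (ILC1 minus NK, with SE) was 4.04 ± 0.50. That fold change held rank 157 from the top among the 14475 genes that passed the filter on low counts.

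Ifitm2, whose product acts in endosomes like that of Ifitm3, ran close to Ifitm1. It stood at 7.94, 5.08 and 12.5 CPM in the NK libraries and at 71.0, 86.0 and 192 CPM in the ILC1 libraries. The groups again did not overlap, and within each group replicate 3 was the highest. The ILC1 mean was 116 ± 66.0 CPM and the NK mean 8.52 ± 3.76 CPM (SD, n = 3 each), with a log2 fold change of 3.77 ± 0.55 and rank 186 from the top.

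Ifitm3, the endosomal restriction factor for influenza virus, had a wider spread in NK cells. It stood at 6.14, 6.16 and 65.5 CPM in NK replicates 1 to 3 and at 104, 151 and 347 CPM in ILC1 replicates 1 to 3. NK replicate 3 lay 10.5-fold above the mean of the other NK libraries on the log scale and closer to the ILC1 libraries than to them, though the groups did not overlap. The ILC1 mean was 201 ± 129 CPM and the NK mean 25.9 ± 34.3 CPM (SD, n = 3 each), with a log2 fold change of 2.95 ± 1.14, rank 330 from the top. Without NK replicate 3 the log2 fold change was 5.03, and without ILC1 replicate 3 it was 2.25.

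Ifitm6, a member known from myeloid cells, was nearly absent outside a single library. Its counts were 0, 0 and 3 in the NK libraries and 9, 7 and 190 in the ILC1 libraries, or 11.01 CPM in ILC1 replicate 3 and at most 0.501 CPM elsewhere. A count of 0 allows up to 3 counts, which is 0.150 CPM in NK replicate 1 and 0.154 CPM in NK replicate 2, for counting error only. It was not tested, since it did not pass the filter on low counts. The library with Ifitm6 was the library with Lyz2, where Ifitm6 was 21.6-fold and Lyz2 55.6-fold above the log mean of ILC1 replicates 1 and 2 (with 0.1 CPM added).

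Ifitm10, whose function is little known, went the other way. It stood at 39.96, 57.5 and 26.1 CPM in the NK libraries and at 17.8, 17.3 and 19.0 CPM in the ILC1 libraries. The 3 ILC1 libraries were nearly equal and lay below every NK library, with NK replicate 3 the nearest. The ILC1 mean was 18.04 ± 0.826 CPM and the NK mean 41.2 ± 15.7 CPM (SD, n = 3 each), 2.28-fold higher in NK cells, with a log2 fold change of -1.19 ± 0.30 and rank 484 from the lowest.

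**Figure D1:**
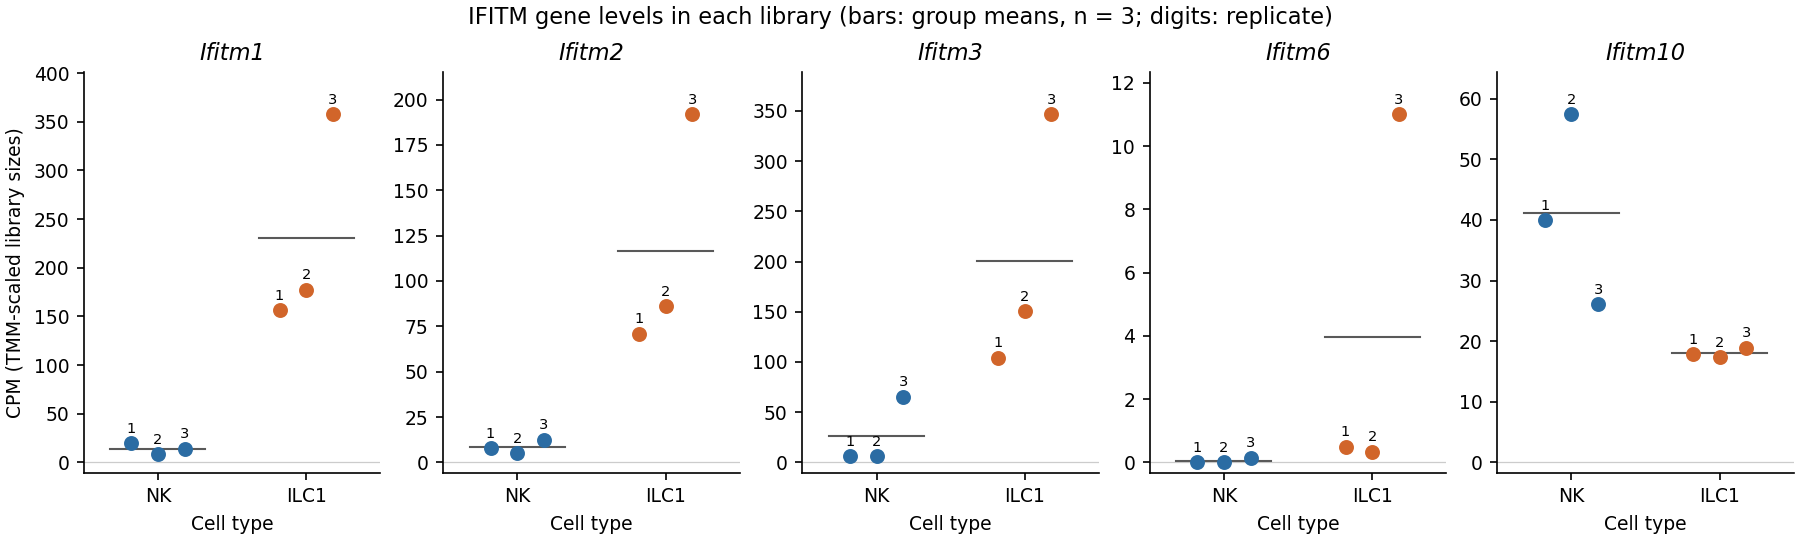
Each panel plots the level of 1 IFITM gene in CPM on a linear axis from 0, by cell type, with a point for each library (the digit is its replicate number) and a bar for the group mean. Ifitm1, Ifitm2 and Ifitm3 lie higher in all 3 ILC1 libraries, Ifitm6 reaches 11.01 CPM in ILC1 replicate 3 alone, and Ifitm10 lies lower in the ILC1 libraries.

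None of the 4 members that passed the filter was called by edgeR's quasi-likelihood test at a Benjamini-Hochberg adjusted p under 0.05, the rule by which 0.0829% of all tested genes were called, and 0 were called by limma-voom, which called 0.111%. All 4 had an unadjusted p under 0.05 in edgeR, as did 15.8% of tested genes, and DESeq2 called Ifitm1, Ifitm2 and Ifitm10. DESeq2 called 5.53% of the 14149 genes tested by edgeR for which it gave a p, and 3.16% of all 25807 genes with a p, low counts included. The groups did not overlap for the 4 tested members, as for 25.8% of tested genes. For Ifitm6, which was not tested, they did not overlap in counts, but exact 95% Poisson intervals did. That of ILC1 replicate 2 (0.137 to 0.703 CPM) overlapped with every NK library. That of ILC1 replicate 1 (0.229 to 0.951 CPM) overlapped with NK replicate 3 (0.0297 to 0.421 CPM). Nothing is read from these counts, since the members were chosen with this comparison known. By direction, the edgeR rule called 0.076% of tested genes as higher and 0.00691% as lower, the unadjusted rule 6.95% and 8.82%, and limma-voom 0.0967% and 0.0138%. DESeq2 called 2.64% as higher and 2.89% as lower of the 14149 genes, and 1.55% and 1.61% of the 25807. Without NK replicate 3, edgeR called 4 of the 5 members that then passed the filter, all but Ifitm6, and 3% of the 14973 genes tested in that setting.

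The level of each member was also set against the library sets, which needs no average over unlike libraries. Among the libraries with matrix genes, ILC1 replicates 1 and 2 lay 11.9-fold above NK replicate 3 for Ifitm1, 6.19-fold for Ifitm2 and 1.91-fold for Ifitm3, and NK replicate 3 lay 1.48-fold above them for Ifitm10. In the same 3 libraries Col3a1, a fibroblast collagen, differed 1.49-fold and Lyz2 1.13-fold in favour of ILC1s. Over listed markers the median log2 difference was 0.367 for macrophages and monocytes (14 higher, 2 lower) and 0.569 for stroma and matrix (12 higher, 2 lower). It was 1.27 for endothelium (10 higher, 0 lower), against 0.935 for Ifitm3 and 0.052 over all tested genes. Neutrophil and B cell medians were -0.021 and -0.52. The 3 libraries were thus not matched in markers of other cells. Against NK replicates 1 and 2, which hold little of the matrix genes, ILC1 replicates 1 and 2 were 12.85-fold higher for Ifitm1, 12.1-fold for Ifitm2 and 20.05-fold for Ifitm3. Ifitm1 thus kept nearly the same distance to either kind of NK library, while the distance of Ifitm3 depended on which NK library was used. When the fit held a term for these library sets, so that NK replicate 3 and ILC1 replicates 1 and 2 carry the difference, it gave log2 fold changes of 3.58 for Ifitm1, 2.65 for Ifitm2, 0.96 for Ifitm3 and -0.57 for Ifitm10.

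Within ILC1s, replicate 3 lay above the log mean of the other libraries by 2.15-fold for Ifitm1, 2.46-fold for Ifitm2 and 2.77-fold for Ifitm3, and Ifitm10 differed by 1.08-fold. Matrix collagens moved the opposite way, with Col3a1 28.7-fold lower in ILC1 replicate 3. The ratio of Ifitm1 counts to Lyz2 counts was 1.34 and 1.89 in ILC1 replicates 1 and 2 and 0.0613 in ILC1 replicate 3. This ratio was 0.668, 0.254 and 0.150 in NK replicates 1 to 3, and it does not show which cells the Ifitm1 reads came from. Ifitm3 counts were 0.221 and 0.198 of the Col3a1 counts in ILC1 replicates 1 and 2 and 0.162 in NK replicate 3, and 16.7 times the Col3a1 counts in ILC1 replicate 3. They were also 17.6 and 1.48 times the Col3a1 counts in NK replicates 1 and 2, where Ifitm3 was low. A high ratio thus marks scarce Col3a1 and is not particular to ILC1 replicate 3. By level, the high Ifitm3 of ILC1 replicate 3 stood beside little collagen RNA and much macrophage RNA, and that of NK replicate 3 beside collagen RNA. The part of macrophage RNA in the higher levels of ILC1 replicate 3 was not tested.

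**Figure D2:**
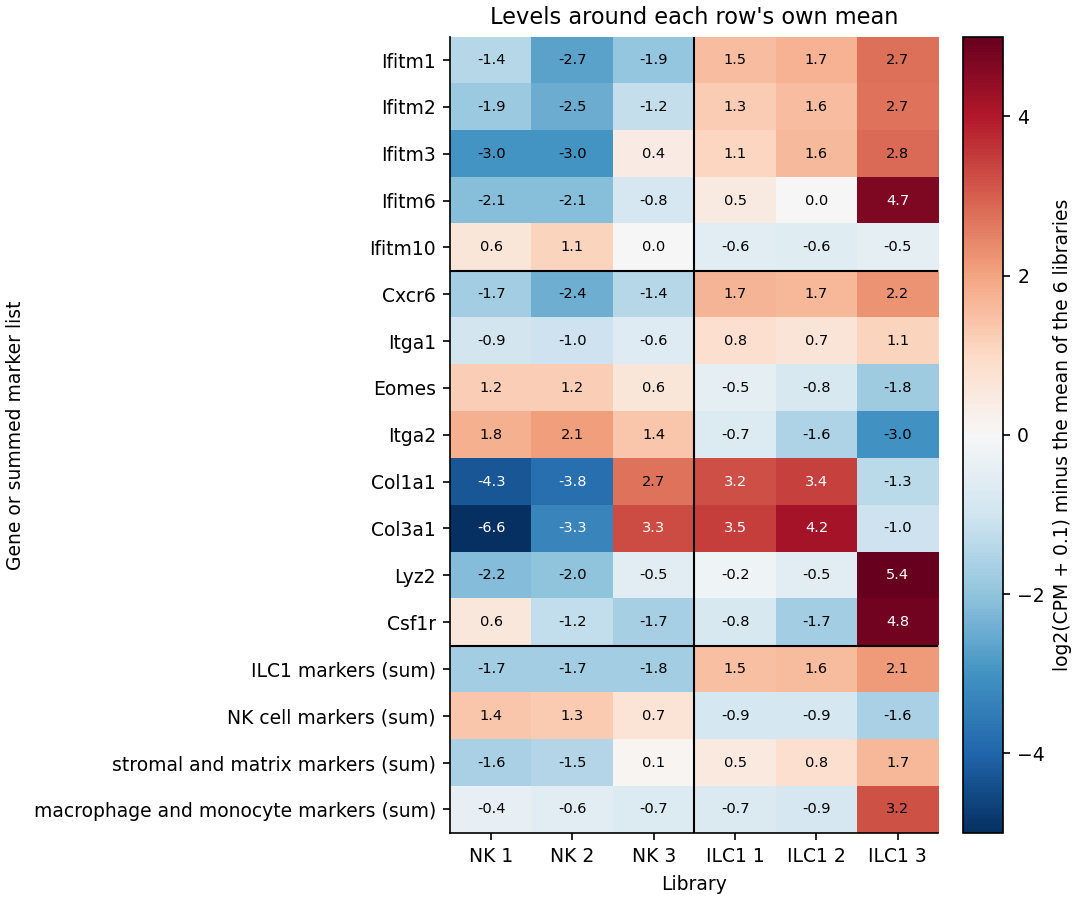
The map shows, for each IFITM gene, lineage or marker gene and summed marker list (rows) and each library (columns), the log2 of CPM plus 0.1 minus the row's mean over the 6 libraries, in red above and blue below it. Ifitm1 and Ifitm2 divide the libraries as Cxcr6 does, Ifitm3 shares the higher value of NK replicate 3 with the collagens, and Ifitm6 peaks where Lyz2 and Csf1r do.

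Marker lists give the same libraries in more detail. The 16 macrophage and monocyte markers summed to 1076 to 1297 CPM in NK libraries, to 1049 and 945 CPM for the first 2 ILC1 replicates and to 15655 CPM for the third, and at most 1 of the 16 was at 0 in any library. Of that list, Ccr2 alone made up 474 to 1012 CPM per library and is also a lymphocyte receptor. The 16 stromal and matrix markers summed to 711, 782 and 2344 CPM over NK replicates 1 to 3, and in the first 2 of these 5 were at 0 and Thy1, also a lymphocyte gene, made up 694 and 761 CPM. They summed to 3029, 3885 and 6928 CPM over the ILC1 replicates, in the last of which fibronectin (Fn1), which macrophages make as well, had 5896 CPM. Neutrophils also express IFITM genes, and their S100a8 and S100a9 stayed at or under 10.04 CPM in all 6 libraries, while Csf3r, which monocytes share, stood at 0.3496, 0.565 and 9.66 CPM over the NK replicates and at 7.85, 4.92 and 44.9 CPM over the ILC1 replicates.

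Other cell types could have entered the sort as well. Endothelial markers summed to 191 to 258 CPM in NK and 172 to 226 CPM in ILC1 libraries, nearly all of it Pecam1, with 7 and 8 of 10 at 0 in NK replicates 1 and 2. The other 9 were higher in ILC1s by their fold changes (list median 2.22) but reached at most 9.18 CPM, and DESeq2 called 1, Kdr, higher. Epithelial and tumour cell markers summed to 16.9 to 34.3 CPM in NK and 106 to 382 CPM in ILC1 libraries, of which Cdh1, an adhesion gene also known from ILC1s, had 97.5 to 377 CPM in ILC1s, while Krt8 and Krt18 were at or under 3.646 CPM in every library. DESeq2 called Cdh1 higher. Dendritic cell markers summed to 589 to 888 and 509.99 to 617 CPM, mostly Itgax, B cell markers to 309 to 582 and 279.96 to 383 CPM, mostly Ighm, and T cell markers to 528 to 606 and 414 to 530.08 CPM, mostly Trbc1. By fold change 7 of 9 T cell markers were positive (median 0.71), with Cd8a and Cd8b1 called higher by DESeq2 and at 39.1 and 12.75 CPM in ILC1 replicate 3, and 5 of 8 tested dendritic cell markers were positive (median 1.50), with Xcr1 called higher by DESeq2. The part of these cells' RNA in the IFITM levels was not tested. Of the 14475 tested genes 8110 had a positive fold change, and DESeq2 called 2.64% of the 14149 genes higher and 2.89% lower. Neutrophil markers summed to 34.1 to 463 and 33.0 to 62.4 CPM, with Mmp9 at 451 CPM in NK replicate 1. The NK list summed to 4143 to 6822 and 827 to 1412 CPM, the ILC1 list to 582 to 590.3 and 5619 to 8582 CPM, and the list shared by both cell types to 9785 to 14610 and 8036 to 9419 CPM. Of the 11 marker lists, the ILC1 list alone had members called by edgeR, 4 of 10, which were Gzmc, Inpp4b, Cxcr6 and Tmem176a, all higher. Over all tested genes edgeR called 0.076% as higher. The lists were chosen with earlier results of these data known, so nothing is read from the counts of called markers.

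Levels were compared between members per kilobase (kb) of exon, with exon lengths from GENCODE M21. In ILC1s, Ifitm3 had 296 ± 190, Ifitm1 211 ± 101 and Ifitm2 178 ± 101 CPM per kb (SD, n = 3 each). Within each ILC1 library Ifitm3 was above Ifitm1 and Ifitm1 above Ifitm2. Ifitm6 and Ifitm10 were lower, at 4.37 ± 6.76 and 3.77 ± 0.173 CPM per kb. In NK cells Ifitm3 had 38.2 ± 50.5, Ifitm2 13.01 ± 5.74, Ifitm1 12.9 ± 5.31, Ifitm10 8.60 ± 3.28 and Ifitm6 0.0531 ± 0.0919 CPM per kb, and the first 4 overlapped over libraries. Ifitm10, the lowest of those 4 by mean, was above Ifitm1 in NK replicate 2.

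Ratios within a library need no scaling between libraries. Per kb of exon, Ifitm3 stood at 0.497, 1.195 and 7.58 times Ifitm1 in NK replicates 1 to 3 and at 1.07, 1.37 and 1.56 times Ifitm1 in ILC1 replicates 1 to 3. The ILC1 libraries fell in a narrow band inside the range of the NK libraries, and NK replicate 3 stood apart, with a 95% binomial interval (Clopper-Pearson) of 6.68 to 8.64. Ifitm2 stood at 0.666, 1.02 and 1.50 times Ifitm1 in the NK libraries and at 0.757, 0.809 and 0.896 times in the ILC1 libraries. The balance of Ifitm2 to Ifitm1 thus moved far less than their levels, which were 16.4-fold (Ifitm1) and 13.7-fold (Ifitm2) higher in ILC1s. These intervals cover counting error only.

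**Figure D3:**
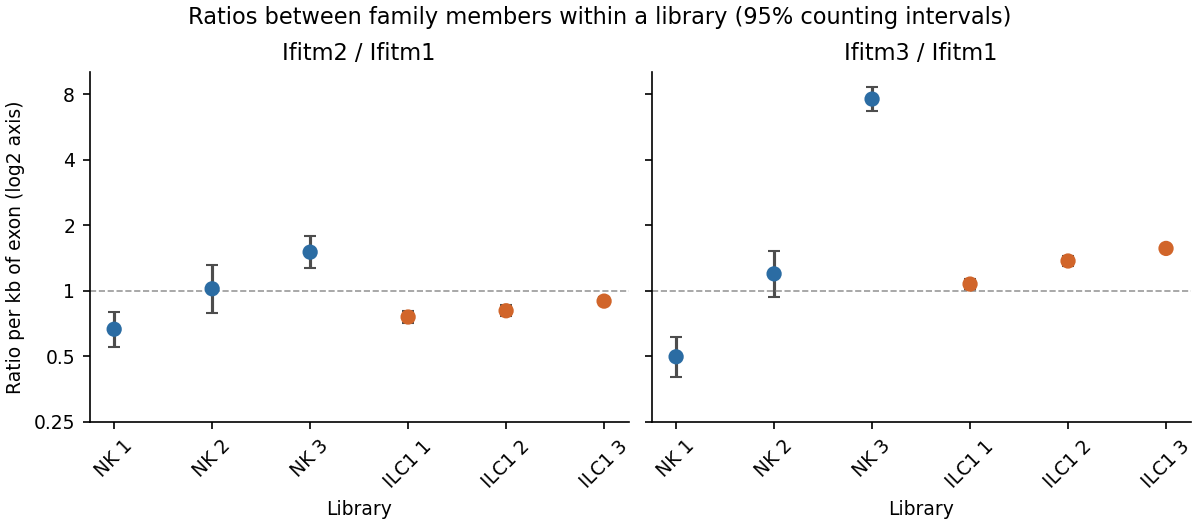
The panels plot, for each library, the level of Ifitm2 (left) and of Ifitm3 (right) relative to Ifitm1 per kb of exon on a log2 axis, with 95% binomial intervals for counting error. NK replicate 3 stands at 7.58 for Ifitm3, while the ILC1 libraries lie between 1.07 and 1.56.

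The genes are alike in places, and counting could split their reads. Of the 50-base windows in its transcripts, the share found in another gene's transcripts was 5.02% for Ifitm1, 48.5% for Ifitm2, 10.02% for Ifitm3, 0 for Ifitm6 and 3.51% for Ifitm10. Most of that for Ifitm2 came from Gm45717, a gene model that runs through Ifitm5 and shares 268 of the 655 exon bases of Ifitm2, and which was at 0 in all 6 libraries. If reads on shared bases were left out of Ifitm2 by the counting, its level per kb of the other 387 bases would average 301 ± 170 CPM for ILC1s and 22.02 ± 9.72 CPM for NK cells (SD, n = 3 each). Between members, 15 windows were shared by Ifitm1 and Ifitm3 and 20 by Ifitm2 and Ifitm3. The order of Ifitm1, Ifitm2 and Ifitm3 by level is uncertain for this reason.

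The genes nearest in pattern were sought among 10047 named genes with at least 5 CPM on average, by the root-mean-square difference of log2 CPM over the 6 libraries after each gene was centred on its own mean. Nearest to Ifitm1 were Cxcr6 (0.34), Gzmc (0.42), Cdh1 (0.53), Pdcd1 (0.56) and Plxdc2 (0.62), and nearest to Ifitm2 were Cxcr6 (0.28), Plxdc2 (0.38), Tmem176a (0.48), Gzmc (0.49) and Tmem176b (0.50). Cxcr6 encodes a chemokine receptor of tissue-resident lymphocytes, Gzmc a granzyme and Pdcd1 the receptor PD-1. Ifitm1 and Ifitm2 had 3 of these neighbours in common and differed from each other by 0.38, against 0.83 between Ifitm2 and Ifitm3 and 1.17 between Ifitm1 and Ifitm3.

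Nearest to Ifitm3 were Anxa3 (0.15), Nt5dc2 (0.22), App (0.29), Met (0.31) and Rin2 (0.34), none of which was near Ifitm1 or Ifitm2. Anxa3, an annexin, stood at 2.25, 2.16 and 32.2 CPM in the NK libraries and at 45.6, 65.3 and 134 CPM in the ILC1 libraries, the same order of libraries as Ifitm3 apart from the lowest pair. App encodes the amyloid precursor protein and Met the receptor for hepatocyte growth factor. Nearest to Ifitm10 were Ypel3 (0.092), Agtrap (0.095), Dyrk1b (0.11), Dedd2 (0.12) and Ehd3 (0.14). These likenesses describe 6 libraries of which some differ in the cells they hold, and all 5 nearest genes of each member were the same with a prior count of 0.5.

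Other interferon-stimulated genes mostly differed less between the cell types than Ifitm1, Ifitm2 and Ifitm3 did. Of 35 listed antiviral genes 34 were tested, and their median log2 fold change was 0.28, against 0.081 over all tested genes. None passed edgeR's test or limma-voom. At an unadjusted edgeR p under 0.05, 5 of the 34 were higher and 3 lower, against 6.95% and 8.82% of all tested genes. DESeq2 called 5 higher and 0 lower, with no adjusted p for 1, against 2.64% and 2.89% of the 14149 genes. The libraries did not overlap for 9 higher and 4 lower genes, against 12.5% and 13.3% of all tested genes. Beyond the adjusted edgeR and limma-voom calls, the list's shares of higher genes were above those of all tested genes. The members at the highest level were Ly6e, Apobec3, Samhd1 and Zc3hav1, and Ly6e, an interferon-induced membrane-anchored protein, stood at 1042, 1371 and 879 CPM in the NK libraries and at 1140, 1057 and 1794 CPM in the ILC1 libraries, where the groups overlapped.

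The genes behind the counts were named after their values were seen. Those called higher by DESeq2 were Isg15, Oas2, Oasl2, Rsad2 and Bst2, those higher at an unadjusted edgeR p were Isg15, Oas2, Oasl2, Bst2 and Ifi27l2a, and those lower were Ddx58, Trim5 and Apobec3. Bst2, which tethers budding virions, stood at 33.5, 27.9 and 55.8 CPM in NK libraries and at 65.4, 96.9 and 97.1 CPM in ILC1 libraries, with a log2 fold change of 1.15. Isg15, a ubiquitin-like protein, stood at 9.84, 10.6 and 18.4 CPM against 21.04, 27.1 and 70.3 CPM, with a log2 fold change of 1.60. Ifi27l2a stood at 2.90, 1.39 and 4.32 CPM against 6.34, 9.84 and 119.9 CPM, so its log2 fold change of 3.98 was carried by ILC1 replicate 3, and ILC1 replicates 1 and 2 lay 1.81-fold above NK replicate 3, where Ifitm1 was 11.9-fold above it. For Bst2 and Isg15, NK replicate 3 was the highest NK library and the difference was far below the 4.04 of Ifitm1. Within the libraries with matrix genes the median of the 34 antiviral genes was -0.088, with 14 higher and 20 lower in ILC1s. Ifitm1 and Ifitm2 were at 3.57 and 2.63 there, but Ifitm3 was at 0.935 and did not stand apart from the list. Oas1g lay above Ifitm3 at 1.08, and Ifit3b and Ifi27l2a lay just below it at 0.888 and 0.856. Oas1g, with 20, 0 and 30 counts in the NK libraries, had a log2 fold change of 2.85, near the 2.95 of Ifitm3. Its groups did not overlap.

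Listed interferon, receptor and signal genes, which include the inhibitors Usp18 and Socs1, had mostly negative fold changes. Ifng, the only interferon gene that was tested, stood at 123, 120 and 167 CPM in NK libraries and at 104, 97.7 and 34.02 CPM in ILC1 libraries, while Ifnb1 reached 3.709 CPM in ILC1 replicate 3, Ifna2 had a count in ILC1 replicate 1 only, and the other 6 of 9 listed interferon genes were at 0 in all 6 libraries. Ifng did not pass edgeR, DESeq2 or limma-voom, and its unadjusted edgeR p was not under 0.05. Of 17 interferon receptor and signal genes 13 had a negative and 4 a positive log2 fold change, with a median of -0.36, and 0 passed edgeR's test or limma-voom. At an unadjusted p under 0.05, Ifngr2 was higher and Ifngr1, Jak1, Tyk2 and Irf3 were lower, against 6.95% and 8.82% of all tested genes. DESeq2 called Ifngr2 higher and Ifngr1 and Jak1 lower, against 2.64% and 2.89% of the 14149 genes. The libraries did not overlap for 2 higher and 6 lower of the 17 genes, against 12.5% and 13.3% of all tested genes. Ifngr2, a receptor chain for interferon gamma, stood at 2.60, 2.05 and 9.18 CPM in NK libraries and at 14.4, 17.4 and 65.5 CPM in ILC1 libraries, and Ifngr1, the other chain, at 1599, 1500 and 1039 CPM against 778, 698 and 775 CPM. Irf8 and Irf1 overlapped between the groups.

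Genes whose products modify or bind IFITM proteins gave a median log2 fold change of 0.19 over 10 members, and 0 passed edgeR's test or limma-voom. At an unadjusted p under 0.05 Vapa was higher and Fyn lower, against 6.95% and 8.82% of all tested genes. DESeq2 called Fyn lower, against 2.89% of the 14149 genes. Fyn, a kinase that phosphorylates IFITM3, stood at 478, 449 and 339 CPM in NK libraries and at 199, 166 and 147 CPM in ILC1 libraries. Nedd4, a ubiquitin ligase for IFITM3, stood at 135, 141 and 328 CPM against 424, 458 and 138 CPM, and Vcp and Cd9 overlapped between the groups as well. Cd81, a tetraspanin partner of IFITM1 named after its values were seen, stood at 3.45, 2.26 and 45.7 CPM in NK libraries and at 63.9, 86.3 and 45.1 CPM in ILC1 libraries. Nedd4 followed the matrix genes over the libraries, and so did the NK values of Cd81.

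The genes beside the cluster were examined for the same direction. Of 15 genes that lie within 171.2 kb of the Ifitm cluster, 11 were tested, with a median log2 fold change of 0.10 and 0 called by edgeR or limma-voom. At an unadjusted p under 0.05 B4galnt4 was higher and Sirt3 lower, against 6.95% and 8.82% of all tested genes. DESeq2 called B4galnt4 higher, against 2.64% of the 14149 genes. B4galnt4, a glycosyltransferase gene 43.2 kb from the cluster, stood at 1.40, 1.18 and 0.721 CPM in NK libraries and at 4.12, 4.68 and 5.51 CPM in ILC1 libraries, with no overlap and a log2 fold change of 2.11. Pgghg, the nearest gene at 1.3 kb, named after its values were seen, stood at 37.6, 40.2 and 28.4 CPM in NK libraries and at 48.5, 42.8 and 47.4 CPM in ILC1 libraries. The 4 with the highest level, Rnh1, Psmd13, Ric8a and Sigirr, had log2 fold changes of 0.50, -0.12, -0.27 and -0.41. Ifitm5 within the cluster had 0, 10 and 0 counts in NK libraries and 8, 16 and 23 counts in ILC1 libraries.

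**Figure D4:**
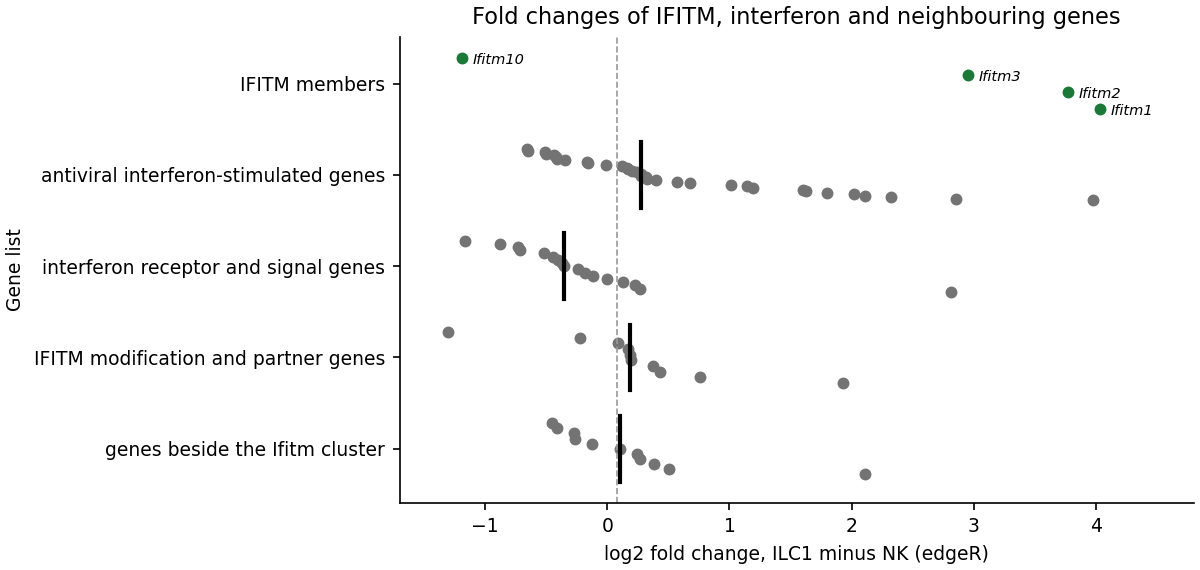
Points are log2 fold changes (ILC1 minus NK, edgeR) of the 4 tested IFITM genes and of the tested members of 4 gene lists, with a bar at each list's median and a dashed line at the median of all tested genes. Ifitm1 at 4.04 and Ifitm2 at 3.77 lie beyond the neighbouring genes, and 1 antiviral gene, Ifi27l2a at 3.98, lies beside them with a value that ILC1 replicate 3 carries.

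Other dispanin genes were scarce. Of 10 listed, 9 were in the table, Ifitm5 and Prrt1 were tested, and neither passed edgeR, DESeq2 or limma-voom or had an unadjusted p under 0.05. Ifitm7, the family member on chromosome 16, was at 0 in every library. Prrt1 stood at 12.5 to 19.6 CPM in NK and 18.3 to 26.0 CPM in ILC1 libraries, and Trarg1 and Tmem91 stayed at or under 0.522 CPM.

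**Figure D5:**
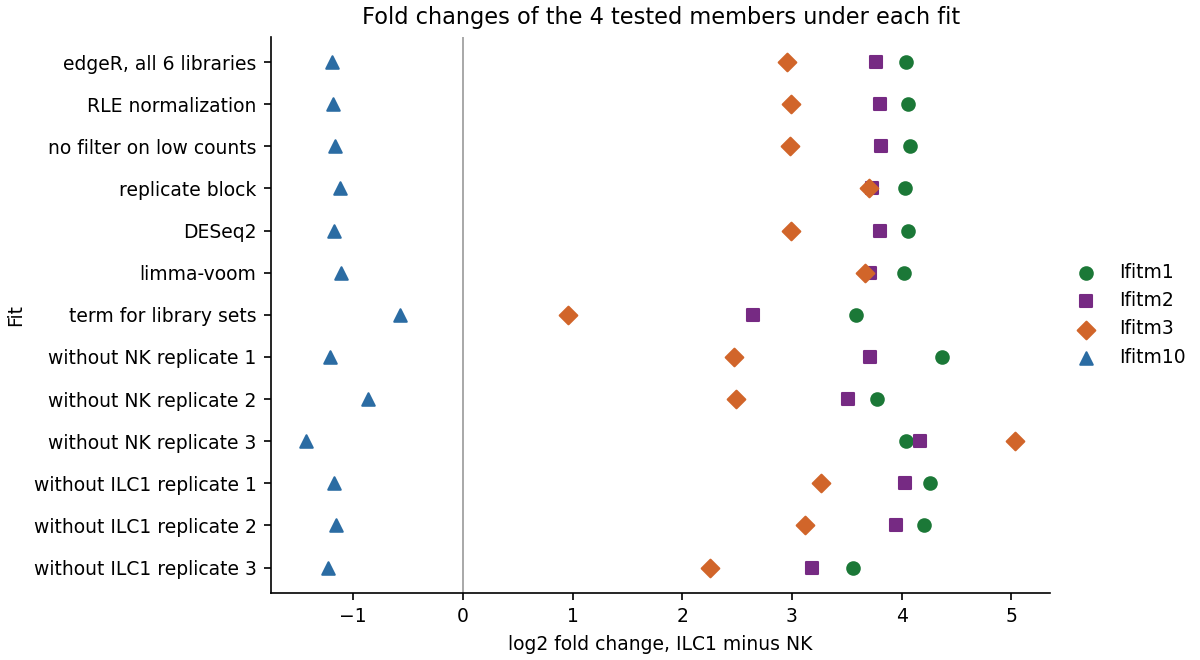
Points are the log2 fold changes (ILC1 minus NK) of Ifitm1, Ifitm2, Ifitm3 and Ifitm10 under each fit named on the left. Ifitm1 stays between 3.56 and 4.37, Ifitm3 runs from 0.96 to 5.03, and Ifitm10 stays below 0.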

How the data were processed

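RNA of 3 NK and 3 ILC1 samples was sequenced as single-end reads of 50 bases after oligo(dT) selection, per the labels' protocols. The authors deposited raw counts per gene symbol, 1 column per sample. The submitters' processing notes name HISAT2 2.1.0, featureCounts 2.0.1 and GRCm38. Which annotation release and strand setting were used, and how multi-mapping reads were counted, is not given in the sources used here. PCR copies are part of the counts, since the protocols mention no molecular identifiers.

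Columns were matched to samples by name, and no 2 libraries agreed within counting noise. CPM uses TMM-scaled library sizes. ILC1 and NK libraries were compared with edgeR 4.0.16 (R 4.3.3) on the 14475 genes kept by filterByExpr, with a robust quasi-likelihood model of cell type and Benjamini-Hochberg adjustment at 0.05. It was tested on simulated data. Log2 CPM for patterns used a prior count of 2. Alternatives were RLE normalization, no filter, a replicate block, DESeq2 1.42.0, limma-voom (limma 3.58.1), an added factor for the library sets described in the text (the first pair of NK replicates, ILC1 replicate 3, and the other 3 libraries) and each library left out. With 3 against 3 libraries an exact permutation test cannot give a two-sided p below 0.1.

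The members, the 17 gene lists and the alternatives were chosen with earlier results of these data known. The naming rule took all 5 members, the called and the 4 highest members of each list, 8 lineage and library check genes, and the 5 genes nearest to each tested member. Not every gene it takes is given with values. Gene positions and exon lengths come from GENCODE M21 and promoters from RefSeq (GRCm38.p6).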

Additional observations from a re-analysis of the deposited data

How the results depend on the processing

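The log2 fold changes of Ifitm1, Ifitm2, Ifitm3 and Ifitm10 kept their sign in all 12 alternatives. With single libraries left out they ran from 3.56 to 4.37 for Ifitm1, from 3.18 to 4.16 for Ifitm2, from 2.25 to 5.03 for Ifitm3 and from -1.43 to -0.87 for Ifitm10. With the term for library sets, which leaves 3 libraries to carry the difference, Ifitm2 was at 2.65, Ifitm3 at 0.96 and Ifitm10 at -0.57. Without NK replicate 3 the NK mean of Ifitm3 was 6.15 CPM in place of 25.9 CPM, and without ILC1 replicate 3 the ILC1 mean of Ifitm6 was 0.421 CPM in place of 3.95 CPM.

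The number of genes called was 11 higher and 1 lower. It was 47 and 91 with no filter, 400 and 416 with DESeq2, 14 and 2 with limma-voom, and 16 and 17 with the term for library sets. With single libraries left out it ran from 0 to 250 higher and from 0 to 199 lower, the highest counts being those without NK replicate 3. The cause was not tested. With the replicate number as a block 0 genes passed in either direction, with 1584 at an unadjusted p under 0.05. Same-numbered libraries deviated from their group means with correlations of -0.36, -0.36 and -0.56. NK replicate 3 correlated at 0.49 and 0.57 with ILC1 replicates 1 and 2, its library set. Since these values follow the library sets, they cannot show whether the numbers pair the samples. Depth limits Ifitm6, at no more than 3 counts per NK library.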
